A study of Drosophila melanogaster with 3 samples.

Results

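The 5 replacement histone genes of Drosophila melanogaster that lie outside the histone gene cluster were His2Av, His3.3A, His3.3B, His4r and BigH1. They are 5 of 18164 annotated genes and of 13945 protein-coding genes on the 6 chromosome arms. Each was matched by its symbol, and a peak was counted at a gene when its summit lay in the gene or within 2 kb of it. The genes were selected on their histone type, with earlier peak results of these data known, so the peak strengths that follow are given as a description with no test.

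Binding was mapped by chromatin immunoprecipitation with sequencing (ChIP-seq) in 1 group of 3 biological replicates, numbered 2, 3 and 4. All were whole embryos of both sexes, 0 to 24 hours old, from 1 transgenic line (CG8089-GFP) that makes the protein CG8089 with green fluorescent protein at its C-terminal end. The tagged protein was precipitated with an antibody against the tag. Control libraries were not analysed here and there was no other group, so signal that the tag or the promoter region itself gives cannot be told apart from binding by CG8089. Whole embryos mix many cell types, so a weak peak in all cells and a strong one in few cannot be told apart either.

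The authors' lists held 30000 entries in each replicate and 30000 after pooling, each entry with a signal value, which is their measure of peak strength on a scale not given in the sources used here. Strength is therefore given as a rank, with rank 1 the strongest entry of a list. The reproducible list, which the authors kept after testing agreement between replicates, was identical to the strongest entries of the pooled list down to a signal of 115.42. An entry of a replicate is called strong below when its rank is no higher than the number of entries in the reproducible list. Read numbers were not given, so the depth behind these ranks is unknown.

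Replacement histones such as H2Av and H3.3 are made throughout the cell cycle, whereas the histones of the cluster are made in S phase for packaging new DNA. His2Av encodes the only H2A variant of the fly, which serves the roles that H2A.Z and H2A.X have in mammals. His3.3A and His3.3B encode the variant H3.3, which is placed in active chromatin outside replication. His4r encodes histone H4 from a single gene away from the cluster, and BigH1 encodes the linker histone of the early embryo, which the ordinary H1 replaces as the zygotic genome becomes active. In the annotation, each of the 5 genes had between 1 and 4 introns, against 0 of 111 cluster genes with an intron. The coding sequences of His3.3A and His3.3B differed at 57 of 408 bases and gave proteins with 0 differing residues. Both H3.3 proteins differed from the H3 of the cluster at 4 of 136 residues.

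The DNA under the peaks that carry the results is shown first, as 100 bp to each side of the summit on build dm6 (RefSeq genome sequence), 5' to 3' on the strand of the histone gene. Capitals mark a match to a searched motif on either strand. His2Av and His3.3B have reproducible peaks. His4r is shown for a peak that fell 54 ranks past the end of the reproducible list, and BigH1 for its strongest weak peak.
His2Av upstream peak, chr3R:26866591-26866791, plus strand: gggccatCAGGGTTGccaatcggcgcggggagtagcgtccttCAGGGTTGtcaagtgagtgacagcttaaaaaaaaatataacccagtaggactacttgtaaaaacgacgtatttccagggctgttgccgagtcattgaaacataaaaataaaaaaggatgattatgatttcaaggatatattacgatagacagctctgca
His3.3B start-site peak, chrX:9155115-9155315, minus strand: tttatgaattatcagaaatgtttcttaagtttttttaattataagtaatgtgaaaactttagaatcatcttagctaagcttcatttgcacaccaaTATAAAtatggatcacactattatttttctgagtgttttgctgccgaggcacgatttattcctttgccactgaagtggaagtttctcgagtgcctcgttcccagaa
His3.3B downstream peak, chrX:9152168-9152368, minus strand: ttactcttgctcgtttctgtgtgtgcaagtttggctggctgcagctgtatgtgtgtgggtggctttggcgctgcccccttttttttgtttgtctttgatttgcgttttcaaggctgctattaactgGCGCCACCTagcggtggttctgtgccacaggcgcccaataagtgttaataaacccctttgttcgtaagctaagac
His4r upstream peak, chr3R:14624160-14624360, plus strand: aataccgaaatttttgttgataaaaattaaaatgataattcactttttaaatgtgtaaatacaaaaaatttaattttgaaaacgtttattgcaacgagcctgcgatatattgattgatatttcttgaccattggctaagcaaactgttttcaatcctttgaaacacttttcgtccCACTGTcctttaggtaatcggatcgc
BigH1 weak peak, chr3R:14664496-14664696, plus strand: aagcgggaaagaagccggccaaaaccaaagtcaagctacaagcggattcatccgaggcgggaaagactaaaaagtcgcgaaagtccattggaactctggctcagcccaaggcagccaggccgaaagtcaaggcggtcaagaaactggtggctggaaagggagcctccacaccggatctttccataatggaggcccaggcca

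Of the 5 genes, 2 had a reproducible summit in the gene or within 2 kb, namely His2Av and His3.3B. Among all annotated genes the share was 24.4%, and among protein-coding genes it was 26.8%. The same 2 genes had a reproducible summit within 500 bp of one of their own transcription start sites, against 12.4% of annotated genes and 14.6% of those that code for protein. All 5 had some pooled summit within 2 kb, but so did 80.8% of protein-coding genes. Within 500 bp of a start site 3 of the 5 had a pooled summit, His2Av, His3.3B and His3.3A, against 51.7% of protein-coding genes. With 5 genes, these counts do not set the group apart from protein-coding genes in general.

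Leaving out a replicate was read with an added condition, that a reproducible peak held a strong summit of each remaining replicate. The counts over the full reproducible list carry no such condition. A fall from them therefore does not show the effect of the replicate left out. With all 3 replicates kept, only His2Av met the condition. With replicate 3 left out, His2Av and His3.3B both kept a reproducible peak that held a strong summit of each remaining replicate. Without replicate 2, and also without replicate 4, only the His2Av peak met that condition, and the count was 1 of 5. Over all annotated genes the count was 4431 of 18164 without the condition. With the condition it was 3063 without replicate 2, 3317 without replicate 3 and 2940 without replicate 4. In their own strongest entries, replicate 2 had a summit at 3 of the 5 genes (His2Av, His3.3B and His4r), against 27.9% of protein-coding genes. Replicate 3 had 1 (His2Av), against 25.7%, and replicate 4 had 4 (all but BigH1), against 26.9%. His2Av was therefore the only one of the 5 that was strong in each replicate. The share of protein-coding genes strong in each replicate is not given here, so that count has no background beside it.

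**Figure D1:**
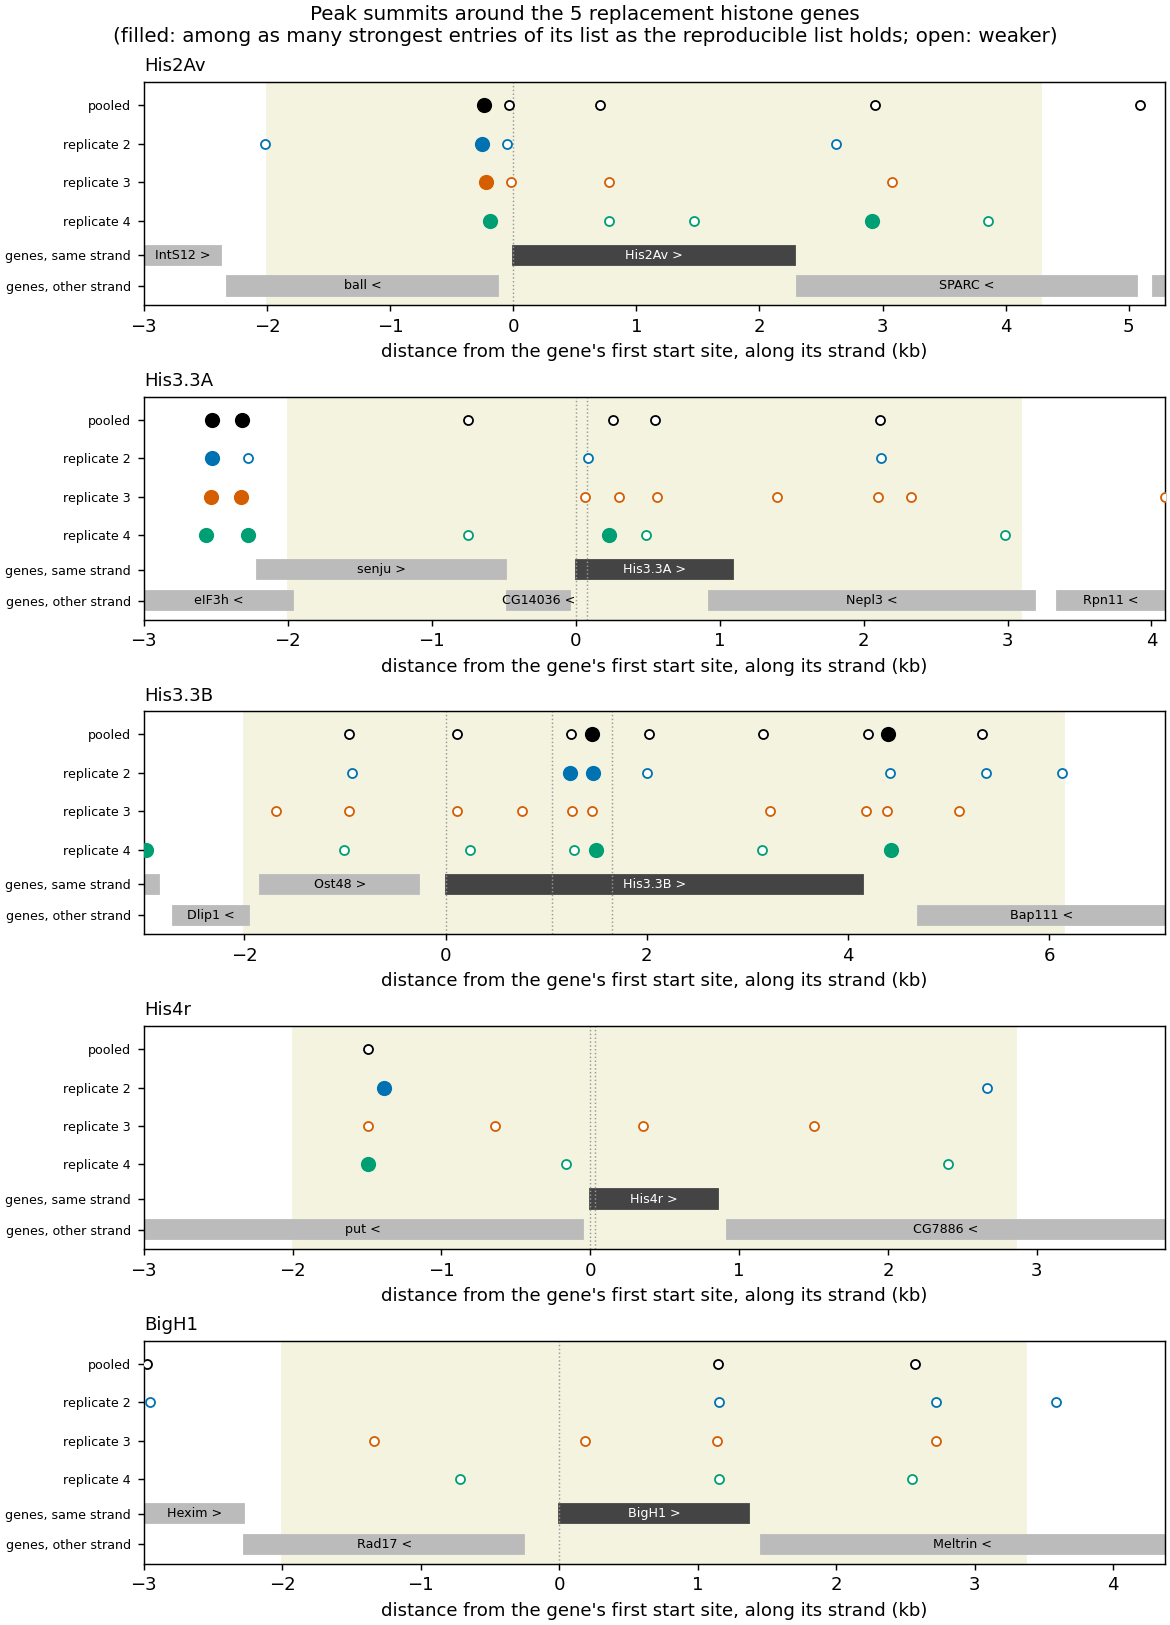
Summits in the pooled list and in replicates 2, 3 and 4 around the 5 genes; the horizontal axis is the distance in kb from each gene's first start site along its strand, the shaded band is the gene with 2 kb to each side, dotted lines are its start sites, dark bars are the histone gene and light bars its neighbours. Filled points are as strong in rank as the reproducible list, open points are weaker: the filled point upstream of His2Av stands in all 4 lists, the 2 filled pooled points of His3.3B lie before its most internal start site and beyond its end, and the filled points left of the His3.3A band lie near the eIF3h and senju start sites.

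His2Av had the strongest peak of the group. The gene (FBgn0001197) lies on the plus strand of chromosome 3R, at 26866929 to 26869220 of dm6, and spans 2292 bp. Its reproducible peak covered 26866493 to 26866888, with the summit at 26866691, 238 bp upstream of the single His2Av start site. Its pooled rank was 729, at a signal of 275. The rank was 1031 in replicate 2, 646 in replicate 3 and 664 in replicate 4, a mean of 780.3 ± 217 (SD, n = 3). In units of the median signal of each replicate's list, the peak stood at 3.67, 5.18 and 4.40. These replicate ranks did not overlap those of any other gene of the group at its strongest pooled peak. Only 7.99% of protein-coding genes had a stronger pooled summit within 2 kb.

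The His2Av peak lay where 2 genes start back to back. ball, which encodes a protein kinase of the nucleus that phosphorylates histone H2A, starts 121 bp from the His2Av start at its outermost site and runs on the other strand. The summit was inside ball, in an intron, and was nearer to ball start sites, at 66 and 116 bp, than to that of His2Av. The replicate summits lay 255, 217 and 186 bp upstream of the His2Av start in replicates 2, 3 and 4. In each of the 3 replicates the nearest start site was one of ball, at 49, 87 and 64 bp. Peak positions alone do not assign this binding to either gene.

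A further pooled summit lay closer to the His2Av start, 37 bp upstream, but was weak, at rank 9571. Its own counterparts had ranks of 17087 in replicate 2 and 13095 in replicate 3. Inside His2Av a weak pooled summit lay in an intron 704 bp downstream of the start, at rank 9149. Beyond the gene end, a summit in the coding sequence of SPARC, a basement membrane glycoprotein gene that meets His2Av tail to tail at a gap of 17 bp, ranked 7292 in the pooled list. That summit had a counterpart at rank 6511 in replicate 3 and 3179 in replicate 4, and no summit of replicate 2 lay inside the peak.

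His3.3B was the other gene with reproducible peaks, and it had 2. The gene (FBgn0004828) lies on the minus strand of chromosome X, at 9152523 to 9156669, spans 4147 bp and has 3 start sites. The stronger peak, at 9155017 to 9155412, had its summit at 9155215, 203 bp upstream of the most internal start site and 398 bp downstream of the middle one. In the longer transcripts this position is intronic. Its rank was 1991 after pooling, at a signal of 154, and 1883, 3572 and 2807 in replicates 2, 3 and 4, a mean of 2754 ± 846 (SD, n = 3). Against the median signal of each replicate's list it stood at 2.53, 2.18 and 2.04. The replicate summits fell within 39 bp of the pooled one. The nearest start site was that of His3.3B itself in every list, unlike the peak at His2Av.

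Next to it, a pooled summit at 9155421 in the 5' UTR of a His3.3B transcript ranked 3861. It was strong in replicate 2, at rank 2869, and weaker in replicate 4 at rank 4508 and in replicate 3 at rank 10421. The 2 pooled peaks overlapped, so they were not separate measurements of the promoter. At the first start site of His3.3B the pooled summit was weak, at rank 27910 and a distance of 109 bp, although replicate 3 alone listed a summit there at rank 4310. Replicate 4 had rank 28007 in the same peak, and replicate 2 had no summit in it. The strongest binding at His3.3B was therefore at the internal start sites in the pooled list.

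The second reproducible peak of His3.3B lay beyond its 3' end, at 9152070 to 9152465. Its summit at 9152268 was 255 bp past the gene, in the 546 bp between His3.3B and Bap111, a subunit gene of the Brahma chromatin remodelling complex, which ends towards it. The nearest start site of any gene was 2744 bp away. Its rank was 2774 after pooling, at a signal of 127, and 3420, 3835 and 3065 in replicates 2, 3 and 4, a mean of 3440 ± 385 (SD, n = 3). Only replicate 4 had it among its strong entries, yet its replicate ranks were closer together than those of the start-site peak.

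His4r had no reproducible peak, by a narrow margin. The gene (FBgn0013981) lies on the plus strand of 3R at 14625755 to 14626614. Its only pooled summit within 2 kb, at 14624260, ranked 3287 with a signal of 114.5. It was 54 ranks past the end of the reproducible list, and its signal was 0.771% below that of the last reproducible peak. The ranks in replicates 2, 3 and 4 were 2720, 4783 and 2340, a mean of 3281 ± 1315 (SD, n = 3). It was strong in 2 of 3 replicates, as was the start-site peak of His3.3B, while the reproducible downstream peak of His3.3B was strong in 1. The replicate ranks of the His4r peak and of the His3.3B start-site peak overlapped, and the 2 sites did not differ beyond that spread.

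The position of that peak does not tie it to the His4r start. The summit lay 1495 bp upstream of it, in an intron of put, a type II activin receptor gene that starts 51 bp from His4r on the other strand, and the put start site was nearer, at 1443 bp. No pooled summit lay within 500 bp of a His4r start site. Replicate 3 had a weak one 320 bp downstream, at rank 13219, and replicate 4 one 160 bp upstream, at rank 25547. The coding sequence of His4r differed from those of the cluster His4 copies at 50 or 51 of 309 bases, and at 0 or 1 of 103 residues.

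His3.3A, whose protein is identical to that of His3.3B, had no reproducible peak in its window, and replicate 4 was the only replicate with a strong summit there. The gene (FBgn0014857) lies on the plus strand of 2L, at 5055058 to 5056149. Its strongest pooled summit, at 5055320, was in the coding sequence 186 bp downstream of the second start site and ranked 6357, with a signal of 77.2. The start site of CG14036, a gene that runs on the other strand and lies 41 bp from His3.3A, was 304 bp from that summit. The best summit inside that peak ranked 8641 in replicate 2, 15112 in replicate 3 and 2332 in replicate 4, a mean of 8695 ± 6390 (SD, n = 3). Replicate 4 stood apart, since at rank 2332 it placed this site above those of His3.3B and His4r, at 2807 and 2340. Replicate 3 had a stronger summit of its own at 488 bp from the start, at rank 11243. Among the strongest pooled peaks of the 5 genes, this one had the widest spread of replicate ranks.

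Strong binding lay just outside the 2 kb limit at His3.3A. A pair of reproducible summits, 2319 and 2529 bp upstream of the gene, ranked 1578 and 656 in the pooled list. Both were nearest to a start site of eIF3h, a translation initiation factor gene, at 41 and 251 bp. The farthest pooled summit inside the limit at any of the 5 genes was that of His4r, at 1495 bp. The stronger of the pair ranked 849, 407 and 797 in replicates 2, 3 and 4. A window of 5 kb would have counted His3.3A for the eIF3h peaks.

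BigH1 had the weakest best peak of the group in the pooled list. The gene (FBgn0038252) lies on the plus strand of 3R at 14663450 to 14664822. Its strongest pooled summit was in its coding sequence, 1146 bp from the start site, at rank 7562 with a signal of 70.8. The replicate ranks there were 8708, 12744 and 9652, a mean of 10368 ± 2111 (SD, n = 3), and none was strong. A second weak summit, at rank 7813, lay in the coding sequence of the neighbour Meltrin, and replicate 4 ranked its counterpart at 5234. No pooled summit lay within 500 bp of the BigH1 start. Only replicate 3 listed one, 187 bp downstream at rank 25361.

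**Figure D2:**
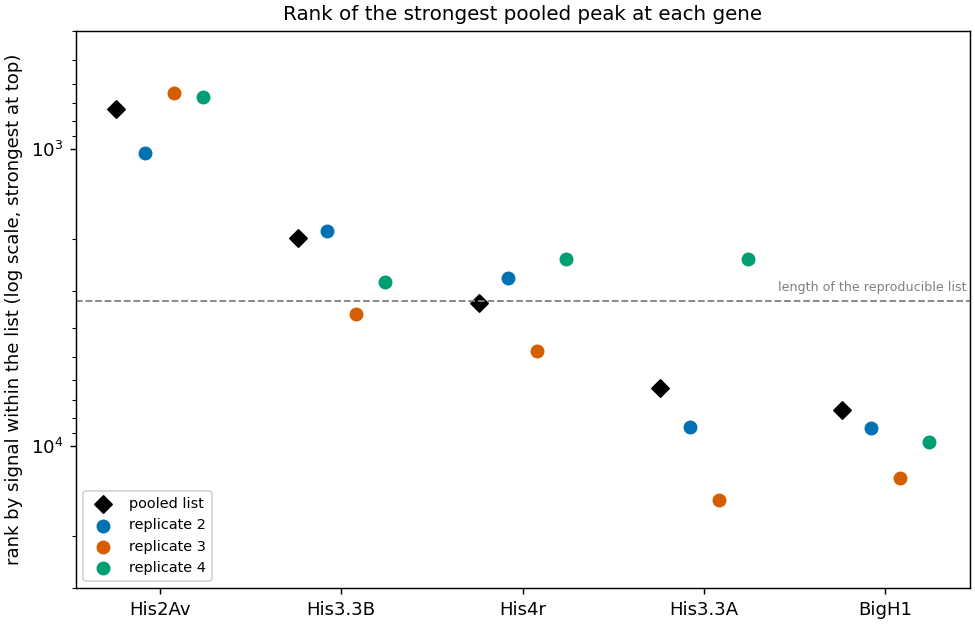
Rank of the strongest pooled peak of each gene in the pooled list (diamonds) and of the best summit inside that peak in replicates 2, 3 and 4 (circles), on a log axis with the strongest entries at the top; the dashed line marks the length of the reproducible list. The replicate ranks of His2Av, 646 to 1031, lie above all others, those of His3.3B (1883 to 3572) and His4r (2340 to 4783) overlap, and His3.3A runs from 2332 to 15112.

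In the pooled list the order of strength was therefore His2Av, His3.3B, His4r, His3.3A and BigH1. His2Av was ahead of His3.3B in each replicate, with no overlap of ranks. His3.3B and His4r overlapped, His4r and His3.3A overlapped, and His3.3A and BigH1 overlapped, so the order of these neighbours was not fixed by the replicates. Among protein-coding genes, 18.9% had a stronger pooled summit than His3.3B, 27.1% a stronger one than His4r, 42.0% than His3.3A and 46.4% than BigH1. The median protein-coding gene had its best pooled summit at rank 8682. Every one of the 5 genes was ahead of that median in the pooled list, but His3.3A and BigH1 were behind the median of replicate 3, which was 9099, with best ranks of 11243 and 12744. In replicate 2, BigH1 at rank 8708 was behind the median of 8649 and His3.3A at 8641 was next to it.

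**Figure D3:**
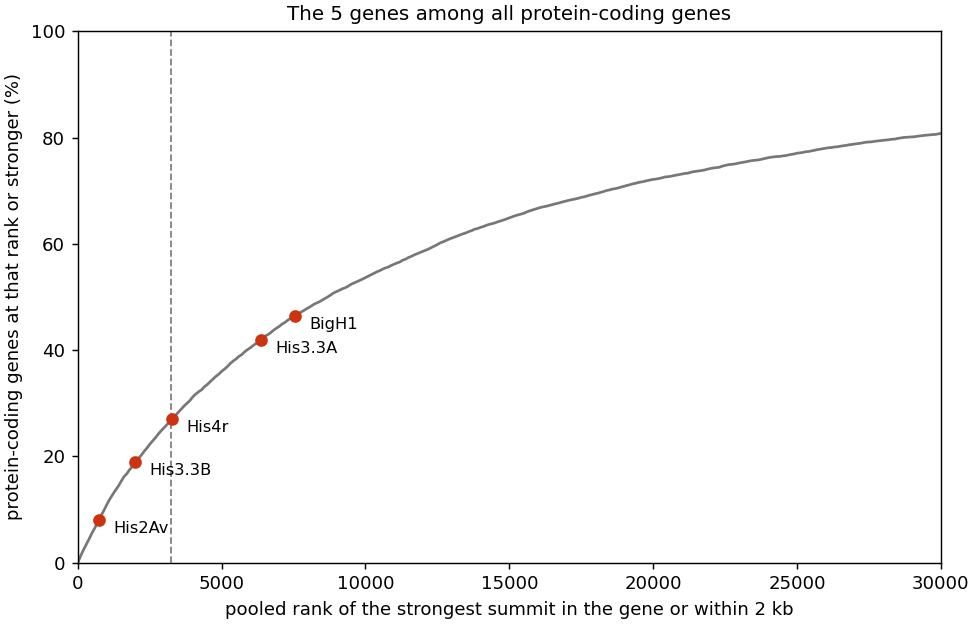
Share of the 13945 protein-coding genes (vertical axis, percent) whose strongest summit in the gene or within 2 kb has a given pooled rank or a stronger one (horizontal axis); points are the 5 genes and the dashed line marks the length of the reproducible list. His2Av and His3.3B lie left of the line, His4r just right of it, and BigH1 at rank 7562, with 46.4% of genes ahead of it.

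Most summits around the 5 genes were weak. The windows of the group held 20 pooled summits, or 4 per gene, against 3.17 per gene over all protein-coding genes. Per length the values were 0.672 and 0.291 per kb, over windows totalling 29.8 kb for the 5 genes and 152004 kb for 13945 protein-coding genes. Genes in the group were shorter (median span 1373 bp, against 2166 bp). Long genes weigh more in such totals than in a median, so the per-kb values do not compare genes of equal length. His3.3B had 9 of the 20, His2Av and His3.3A 4 each, BigH1 2 and His4r 1. All 3 replicates had a summit inside 10 of the 20 pooled peaks, against 24.7% of all pooled entries and 91.7% of reproducible ones. Overlapping neighbours at His2Av and His3.3B share some of those replicate summits, so these counts are not of independent sites.

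The base composition differed between the shown windows. GC content was 42.3% at the His2Av peak, 33.3% and 48.8% at the His3.3B start-site and downstream peaks and 29.9% at the His4r peak. At the weak coding-sequence peak of BigH1 it was 55.2%. The median window had 37.3% among reproducible peaks and 47.3% among the other pooled entries. Whether composition moved with peak strength was not tested.

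Few of the searched motifs occurred in the windows printed above. The motifs were the DRE (TATCGATA), the GAGA element (GAGAG), the core of the promoter Motif 1 (GTCACACT), the words ACACTG and ACAGTG taken from earlier results of these data, the Zelda site (CAGGTAG), the TATA box (TATAAA) and the E-box (CACGTG), each on both strands. TATAAA occurred at the His3.3B start-site peak, where its last base was the summit base, 203 bp upstream of the nearest start site. Windows of that size held it in 28.1% of reproducible peaks and in 15.6% of the other pooled entries. These sets also differ in GC content, as given above, and the word holds only A and T. ACAGTG occurred at the His4r peak, 75 to 80 bp downstream of the summit, on the other strand. It was in 19.3% of reproducible peaks and 10.7% of the others. Because the word was taken from earlier results of these data, these shares are no evidence of preference. None of the other 6 was in any of the 5 windows. In the 300 bp promoter of each gene, 250 bases before and 50 after its first start, TATAAA and GAGAG occurred at His3.3B only, against 45.8% and 29.7% of all protein-coding promoters. A match is a description of the letters and shows no bound factor.

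A pair of further words was searched after the sequences had been seen. The downstream peak of His3.3B held the core of the binding site of the insulator protein CTCF (AGGTGGCGC), on the other strand, 26 to 34 bp from the summit. That core was in 1.30% of reproducible windows, 0.426% of the other pooled windows and 0.323% of protein-coding promoters. The His2Av peak held the word CAGGGTTG 2 times in the same direction, 93 and 58 bp upstream of the summit. At least 1 copy was in 1.73% of reproducible windows, 0.396% of the other pooled windows and 1.26% of protein-coding promoters. Because the words were chosen from these windows, their presence here is no evidence of preference.

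Repeats of the kind found in the cluster were not seen in the printed windows. Of the stretches of 32 bases in each printed window, 0% occurred more than once in the assembly at His2Av, His3.3B, His4r and BigH1. In the cluster on 2L, from 21416953 to 21541681, it was 99.0%. None of the 5 lists had a summit in the cluster, so absent peaks there cannot be told apart from reads that could not be placed.

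The factors that handle replacement histones were then read from a list of histone chaperones and exchange factors, drawn up by function with earlier results of these data known, of which 28 of 30 names matched a gene. Of these 28, 8 had a start site with a reproducible summit no farther than 500 bp away (28.6%), next to the 14.6% of protein-coding genes given above, and 24 had a pooled one, against 51.7% of protein-coding genes. In strong entries the count was 7 in replicate 2, against 14.9% of protein-coding genes, 8 in replicate 3, against 13.7%, and 8 in replicate 4, against 14.0%. The genes differed between replicates, and 4 were strong in all 3, namely yem, dre4, Spt6 and Nipped-A. The share of protein-coding genes strong in all 3 is not given here, so this count has no background beside it. With a window of 250 bp the count of genes with a reproducible summit was 5. With the added condition of a strong summit in each remaining replicate, leaving out replicate 4 gave 4, replicate 2 gave 5 and replicate 3 gave 6. The count of 8 carries no such condition, so these counts do not show the effect of a replicate left out. Over all 18164 annotated genes the count of 2247 fell as well with 250 bp, to 1776. With the added condition it was 1356, 1397 and 1585 without replicates 4, 2 and 3. In the gene or within 2 kb, 11 of the 28 had a reproducible summit (39.3%), against 26.8% of protein-coding genes. Caf1-55, MRG15 and E(Pc) had one only beyond the 500 bp limit, at ranks 18, 555 and 1288.

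For H3.3, the listed genes with a reproducible promoter summit were yem and Chd1. The yem product works with Hira in H3.3 deposition, and the summit had pooled rank 1180. Chd1 is a remodeller needed for H3.3 deposition in the early fly embryo, and the summit had rank 1406. Hira itself had a weak promoter summit at rank 21958, and XNP, the fly ATRX remodeller, one at 13670. For both yem and Chd1 another gene started nearer to the summit, Ctl2 and Bem46. The Chd1 rank was 716 in replicate 2, 8349 in replicate 3 and 1399 in replicate 4, so replicate 3 was weak there. The chaperone gene asf1, for H3 and H4, had its peak at rank 2929 and 433 bp, with l(3)76BDm nearer, and was not strong in replicate 2, at rank 4912. The replication-coupled subunit gene Caf1-180 had a peak at rank 2636 with the summit 2 bp from its start. The rank of the best Caf1-180 summit was 16759 in replicate 2, 5828 in replicate 3 and 985 in replicate 4, so only replicate 4 was strong there.

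Among genes for transcription-coupled histone handling, dre4 (the Spt16 subunit of FACT) had a reproducible promoter summit at rank 1669 and Spt6 one at rank 1716. Their replicate ranks were 1410, 1673 and 3039 for dre4 and 1455, 2527 and 2278 for Spt6 in replicates 2, 3 and 4, all strong. Ssrp, the other FACT subunit gene, had no pooled promoter summit. For H2Av exchange, which the Domino and Tip60 complex carries out, Nipped-A had a reproducible promoter summit at rank 1593 and pont, an ATPase gene, one at rank 2268. The pont rank in replicate 3 was 3795, which is not strong, against 1803 in replicate 2 and 2145 in replicate 4. A stronger reproducible summit, at pooled rank 356, lay in pont or within 2 kb of it, beyond the promoter limit. dom, the catalytic ATPase gene, was below the reproducible list at rank 4503, as was Tip60 at rank 7209. Nipped-A and pont were the only listed genes of this complex with a reproducible promoter summit. The listed genes rept, Gas41, YL-1, MrgBP and Brd8 were among those without one.

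Of the 7 matched genes for the cluster's own mRNA and its nuclear body, 1 had a reproducible promoter summit (14.3%), a share near the 14.6% of protein-coding genes. It was mxc, which organises the histone locus body, at rank 1884 and 86 bp from its start. Its replicate ranks were 1358, 3786 and 1691, so replicate 3 was not strong there. Slbp, the stem-loop binding protein of cluster mRNA, was weaker, at rank 5111. Neither cid, the centromeric H3 gene, nor its loader cal1 had a pooled promoter summit.

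**Figure D4:**
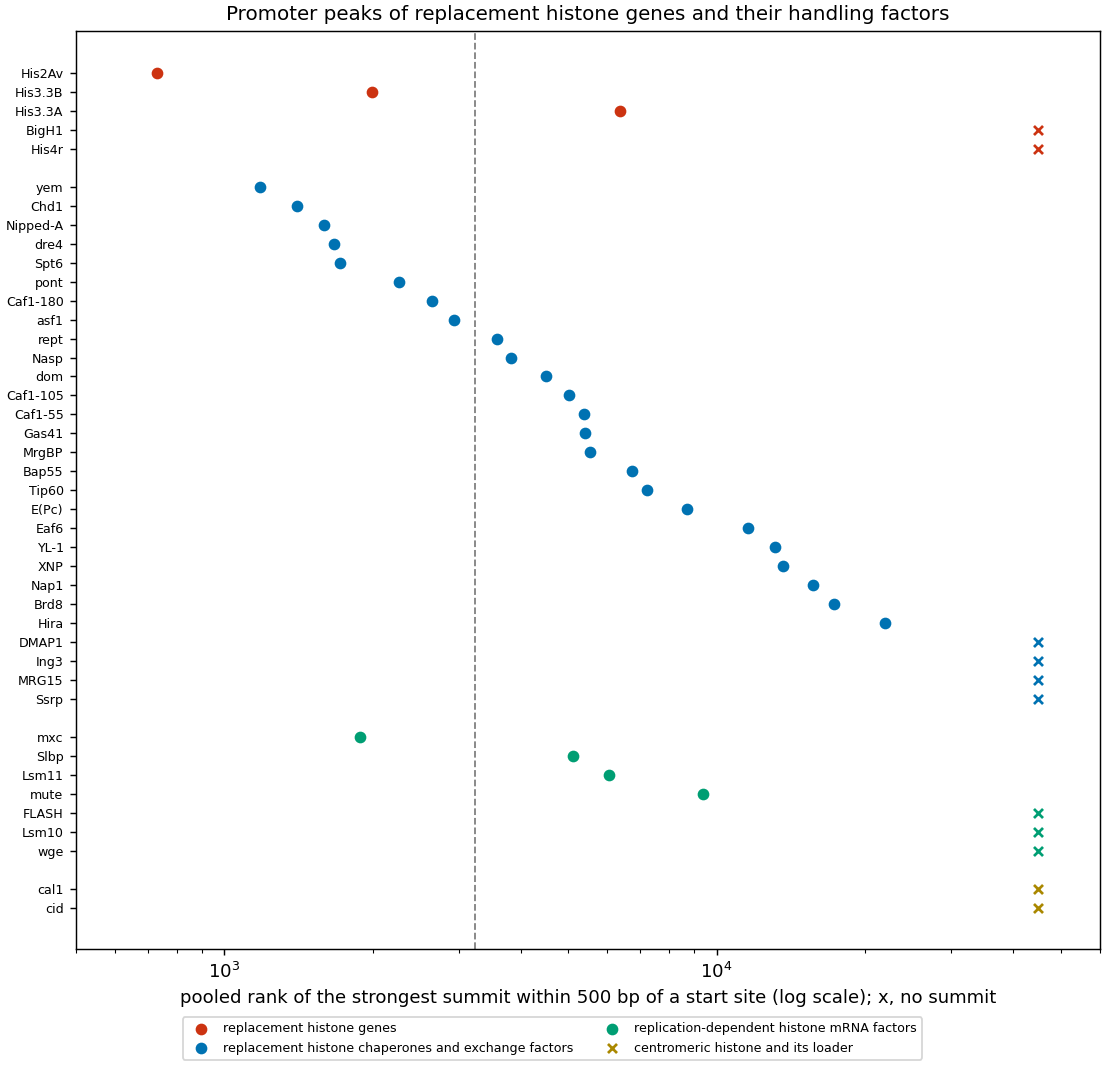
Pooled rank (log axis) of the strongest summit within 500 bp of a start site for the 5 replacement histone genes and for the listed chaperone and exchange factor, histone mRNA and centromere genes; crosses are genes with no such summit and the dashed line is the length of the reproducible list. The 8 chaperone and exchange genes left of the line run from yem at rank 1180 to asf1 at rank 2929, and His2Av at rank 729 is ahead of all genes shown.

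For each histone gene with a reproducible start-site peak, the promoter peaks with the most alike ranks were named, by the sum over the 3 replicates of the absolute difference in log2 rank, among 1605 peaks. For His2Av they were at pdgy (ranks 1114, 584 and 683 in replicates 2, 3 and 4, sum 0.30), out (0.32) and CG10165 (0.43). For His3.3B they were at gro (1915, 3267 and 3017, sum 0.26), PAPLA1 (0.31) and lncRNA:CR44366 (0.33). Over 3 replicates such likeness is a description of peak strength only.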

How the data were processed

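The deposited lists hold, per the descriptions deposited with the files, peaks that the authors called from each replicate's alignments, and from all 3 pooled, with 1 further file. Not given in the sources used here are the caller, its settings and the cut-off for reproducibility. The authors' signal value per peak ranked the entries of a list. The deposited −log10 q-value was at its highest in 3193 reproducible peaks and was not used to rank. No depth was given, so no counting interval was derived. The lists on dm3 were not used.

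Summits were placed on dm6 with the Ensembl gene annotation, transposable elements left out, and sequence came from the RefSeq genome of the same assembly, whose chromosome lengths held every coordinate. Counts at the genes are given beside the same counts over all genes, with no test, because there was 1 group without a contrast. The 5 genes, the gene lists and the motifs were chosen with earlier results of these data known. The text names the 5 genes, genes starting within 500 bp of their summits and list members with a reproducible promoter summit. It also names the 3 most alike peaks per histone gene with a reproducible start-site peak. Other genes are named after their values were seen. The list names DLP and ASH1 matched unrelated genes and were left out, and Anp32a matched none. Alternatives were other windows, the stronger part of the list, peak intervals and leaving out each replicate. Functions were tested on planted summits. Python 3.11.15, numpy 2.4.6, pandas 2.3.3 and matplotlib 3.10.9 were used. The sequence window of the His3.3A peak is not reported here.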

Additional observations from a re-analysis of the deposited data

How the results depend on the processing

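The count of the 5 genes with a reproducible summit in the gene or within 2 kb stayed at 2 with a 1 kb window and with peak intervals in place of summits, and was 3 with a 5 kb window. It was 1 with the gene body only, where the peak upstream of His2Av is outside, and 1 among the 1616 strongest reproducible peaks, where His3.3B is below the limit. Without 1 replicate, and with the added condition of a strong summit in each remaining replicate, it ran from 1 to 2. The count within 500 bp of a start site stayed at 2 with windows of 250 and 1000 bp, was 1 among the 1616 strongest and ran from 1 to 2 without 1 replicate.

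Over all genes the count within 2 kb was 4431 and became 1459 with the gene body only, 2663 among the 1616 strongest and 2940 to 3317 without 1 replicate. The count within 500 bp of a start site was 2247 and became 1224 among the 1616 strongest and 1356 to 1585 without 1 replicate. The lists without 1 replicate are shorter by construction, at 1892 to 2119 peaks. They keep only reproducible peaks with a strong summit of each remaining replicate, a condition that the main counts do not carry. Falls from the main counts therefore do not show the effect of a replicate. For the 28 chaperone and exchange factor genes, 8 became 5 with the 250 bp window, 3 among the 1616 strongest and 4 to 6 without 1 replicate. The count of the 5 genes with a pooled summit was 4 with the gene body or 1 kb, and 5 with 5 kb and in each replicate's own list.

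No paired analysis was possible because there is 1 group and no contrast. Depth is unknown, so no detection limit can be given for missing peaks.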
